A study of Mus musculus with 8 samples.

Results

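The effect of 4-hydroxytamoxifen (4OHT) on gene expression was measured in T29 cells that carried Ik1ER. The arrays compared were the 2 titled MigR1-Ik1ER with 4OHT and the 2 titled MigR1-Ik1ER with ethanol, which make 4 of the 8 arrays of the series, each read over 18193 genes. T29 cells come from a thymic lymphoma of the mouse and lack Ikaros according to the series text, and all groups of the series were made from them. Every group carried the retroviral vector MigR1, either alone or with Ik1ER, an inducible form of the Ikaros protein supplied from the vector on top of whatever the line makes itself. Treatment was 100 nM 4OHT or its solvent ethanol (0 nM 4OHT), in both cases for 24 h. The other 4 arrays, 2 per treatment, came from cells with the vector alone and show what 4OHT does without Ik1ER. The labels give neither an age nor a strain, do not say whether a transduced line is 1 clone or a pool, and do not say that the 2 arrays of a group are separate cultures, so the spread behind the p-values is that of arrays and may be of technical origin only.

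Ikaros, the product of Ikzf1, is a zinc finger protein of lymphoid cells that binds DNA at sites with a GGGAA core and works with chromatin remodelling and histone deacetylase complexes. It can silence a gene or keep it active, and its loss in thymocytes leads to lymphomas. Fusion to the hormone-binding part of the estrogen receptor is a common way to make such a protein answer to 4OHT, which moves the fusion into the nucleus without a change in its own transcript.

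The transcript of the factor itself was not called as different between 4OHT and ethanol. Levels are log2 values after RMA, the normalization used by the authors. One Ikzf1 probe set read 11.17 and 10.60 on the Ik1ER ethanol arrays and 11.27 and 10.45 on the 4OHT arrays, against 8.12 to 8.51 on the MigR1 arrays. This probe set was high in all Ik1ER arrays whatever the treatment. The other, which stood for the gene, read 10.16 and 10.44 in ethanol and 9.97 and 10.25 in 4OHT (-0.19, adjusted p = 0.529). On the MigR1 arrays it read 10.20 to 10.36, so it was not raised in cells with Ik1ER. The probe set that was raised there changed by -0.02 with 4OHT and was not called among all probe sets. All 11 thymocyte markers examined read above the brightest bacterial control probe set (mean 5.27, used here as a gauge of background), among them Cd3d, Thy1 and Rag1. Of the markers of other cells 2 of 6 B cell, 3 of 7 myeloid, 1 of 3 erythroid, 2 of 5 cytotoxic and 2 of 5 stromal genes did so, among them Pax5 and Cd22 of B cells (5.89 and 5.90 as ethanol means), while Cd79b, Ms4a1 and Ebf1 of B cells, Mpo of myeloid cells, Gzmb of killer cells, Alas2 of red cells and Col1a1 of stroma were under it. The replicate 2 arrays of both Ik1ER groups stood apart in a control of RNA integrity, the 3' over the 5' probe set of the transferrin receptor (1.66 and 1.91 against 1.15 to 1.39 elsewhere on the log2 scale). Each treatment holds 1 of these arrays. Other signs of quality differed within the pair: the 18S rRNA probe sets read 10.07 on ethanol replicate 2 against 8.54 to 9.18 elsewhere, and the hybridization controls 8.86 on 4OHT replicate 2 against 9.41 to 9.54 elsewhere. Many counts below are also given without the pair. None of the B cell and erythroid markers was called. The summed linear level of 5 cytotoxic genes was 7218 and 6645 in ethanol and 13960 and 12800 in 4OHT, nearly all of it Gzma, and that of 5 stromal genes was 900 and 784 in ethanol and 513 and 508 in 4OHT, with Pdgfrb (-0.91, adjusted p = 0.167) the brightest. Their part in the results was not tested, and in bulk RNA fewer cells of a type and less RNA per cell cannot be told apart.

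After 24 h of 4OHT, 973 of the 18193 genes (5.35%) passed the test in Ik1ER cells, 516 higher (2.84%) and 457 lower (2.51%). These genes are called rises and falls below; a call is an adjusted p under 0.05 in limma, and changes are log2 differences of group means, 4OHT minus ethanol. On all of the 973 genes both 4OHT arrays lay on 1 side of both ethanol arrays, as they did on 42.7% of all genes. Most changes were moderate. The median size was 0.597, 331 changes were under 0.5, and 153 were 1 or more, of which 78 were rises and 75 falls. The distribution over all genes was centred near 0, with the median at -0.00386 and the 5th and 95th percentiles at -0.305 and 0.333. Without both replicate 2 arrays 388 genes were called, 177 higher and 211 lower, and 329 of the 973 were among them in the same direction. Leaving out 1 array gave 439 calls without Ik1ER ethanol replicate 1 and 440 without Ik1ER ethanol replicate 2, and between 692 and 827 without any other array. Falls outnumbered rises without Ik1ER ethanol replicate 1 (202 higher, 237 lower), without Ik1ER 4OHT replicate 2 (382 and 445) and without both replicate 2 arrays, so that the balance of rises and falls changed with single arrays. A permutation test of 2 against 2 arrays cannot go below 0.333 (exact, two-sided), so single genes rest on the limma fit, which pools the spread over 4 groups.

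The calls were spread over the range of expression. With genes split by mean level into 5 groups of equal size, 0.385% were called in the dimmest, 2.03% in the next, and 8.19%, 9.46% and 6.68% in the 3 brighter ones. Of the 973 genes, 864 had both group means above the brightest bacterial control, 32 crossed it upwards, 33 crossed it downwards and 44 stayed below it. In MigR1 cells the same 973 genes differed between 4OHT and ethanol by -0.383 to 0.402, with a median size of 0.0542, and none of them was called there.

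**Figure D1:**
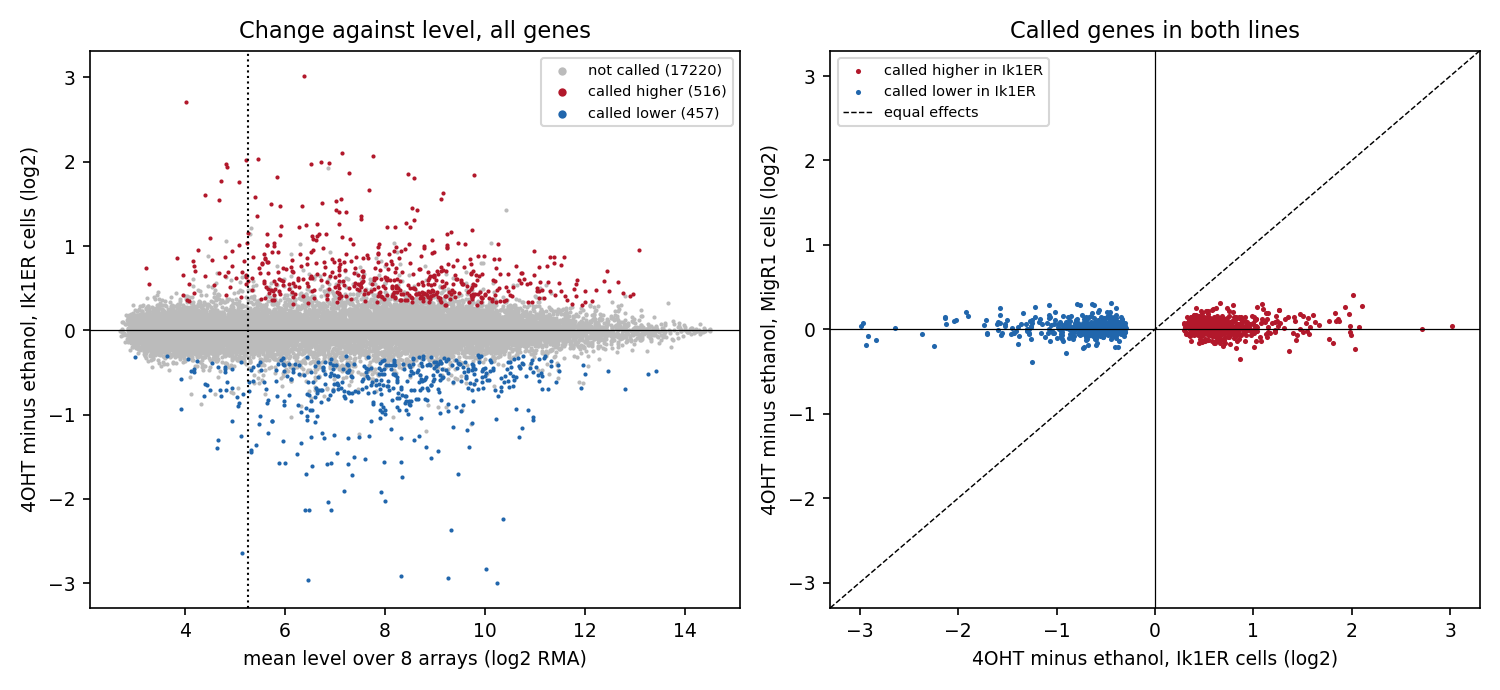
Left, the 4OHT minus ethanol difference in Ik1ER cells (log2, vertical) against the mean level over the 8 arrays (log2 RMA, horizontal) for 18193 genes, with 516 genes called higher in red, 457 called lower in blue, the others in grey, and the brightest bacterial control (5.27) as a dotted line. Right, the same difference for the 973 called genes in Ik1ER cells (horizontal) and MigR1 cells (vertical, log2): the points lie along the horizontal axis, between -0.383 and 0.402 in MigR1 cells, and off the dashed line of equal effects.

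Changes reached the most abundant transcripts, in a share somewhat above the 5.35% of all genes. Without both replicate 2 arrays the share was near that of all genes in the same fit. Of 1820 genes whose higher group mean was above the 90th percentile (10.51), 132 were called (7.25%), 73 higher and 59 lower, and 43 without both replicate 2 arrays (2.36%), 19 higher and 24 lower. Gzma, which encodes the killer cell protease granzyme A, read 12.80 and 12.67 in ethanol and 13.76 and 13.63 in 4OHT, a rise of 0.96 (SE 0.12, adjusted p = 0.00475). Its groups did not overlap, and in MigR1 cells it read 13.04 and 12.81 in ethanol and 13.09 and 12.80 in 4OHT. Gzmb, Nkg7 and Ncr1, other cytotoxic genes, were below the background gauge and were not called, while the perforin gene Prf1 rose by 0.52 (adjusted p = 0.0222). Sla, whose product damps T cell receptor signals, rose by 0.94 from 10.67 and 10.72 in ethanol to 11.65 and 11.61 in 4OHT. Other abundant rises were those of the cathepsin L gene Ctsl (0.87), the p53-induced gene Trp53inp1 (0.87), the mitochondrial membrane protein gene Tspo (0.88) and the galectin gene Lgals1 (0.87). Abundant falls included Uaca (-2.24), Myzap (-1.06), the class I histocompatibility gene H2-Bl (-1.16), the lysosomal membrane protein gene Laptm4b (-0.95) and Afdn (-0.93), which encodes afadin, a linker of nectins to actin. For 128 of the called genes selected for naming, 223 other probe sets read above background; 215 had the sign of the one used, 92 were called among all probe sets, and 52, on 41 genes, changed by under 50% as much. Those of genes named here are given beside them, such as -0.20 for Afdn. H2-Bl belongs to a family of near-identical genes, whose probes may share signal. Here and below E1 and E2 stand for the Ik1ER ethanol arrays 1 and 2, and T1 and T2 for the Ik1ER 4OHT arrays, and the calls that a fit without 1 array loses are given with the highest adjusted p: Lgals1 without E1 (at most 0.0608), Afdn without E2 (at most 0.0747) and Prf1 without E1, E2, T1 or T2 (at most 0.125).

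Part of the genes that changed lay side by side on the chromosomes. Of 18032 genes placed in chromosome order with the RefSeq gene table, 514 were called higher, and for 104 of these (20.2%) the measured gene before or after was called higher too, against 5.04% of genes that were not called. For genes called lower the share with such a neighbour was 13.8% (63 of 456), against 4.70%. No test was made of these shares. Neighbours of opposite direction were fewer: 3.73% of the genes called lower had a neighbour called higher. With only genes above the background gauge the shares were 23.2% and 19.7%, against 7.42% and 6.79% of genes not called. A further count left out neighbours with the same first 3 letters in their symbols, which keeps related pairs such as Cryab and Hspb2. The shares were then 17.1% and 12.3%, against 4.83% and 4.47%. Without both replicate 2 arrays they were 16.5% and 10.9%, against 1.77% and 2.19%. In all, 71 runs of 2 or more neighbours moved in 1 direction, 44 upwards and 27 downwards, and 14 of them held 3 or more genes. Of the 96 neighbouring pairs in runs, 6 overlap in the table, Rb1 with Lpar6 and Cryab with both of its neighbours among them, against 10.5% of all pairs, and their signals may not be fully separate.

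The longest run was a stretch of 7 genes on chromosome 9 that all fell. It begins with 3 chains of the T cell receptor complex, Cd3g (-0.69), Cd3d (-0.49) and Cd3e (-0.43), goes on with the adhesion protein genes Mpzl2 (-2.92) and Mpzl3 (-0.74) and ends with the sodium channel beta subunit genes Scn2b (-1.71) and Scn4b (-2.84). Mpzl2 read 9.27 and 8.80 in ethanol and 6.19 and 6.04 in 4OHT, so that it fell by 2.92 (SE 0.16, adjusted p = 0.000146). Scn4b read 10.83 and 11.02 in ethanol and 7.91 and 8.26 in 4OHT, so that it fell by 2.84 (SE 0.13, adjusted p = 8.44e-05). Both genes were lower on the 2 Ik1ER 4OHT arrays than on any of the other 6 arrays, and fell more than the CD3 genes beside them. Without both replicate 2 arrays 4 of the 7 were called. Left-out arrays ended the calls of Cd3e without E1 or T1 (at most 0.0988) and Cd3d without E1, E2, T2 or any MigR1 array (at most 0.207).

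**Figure D2:**
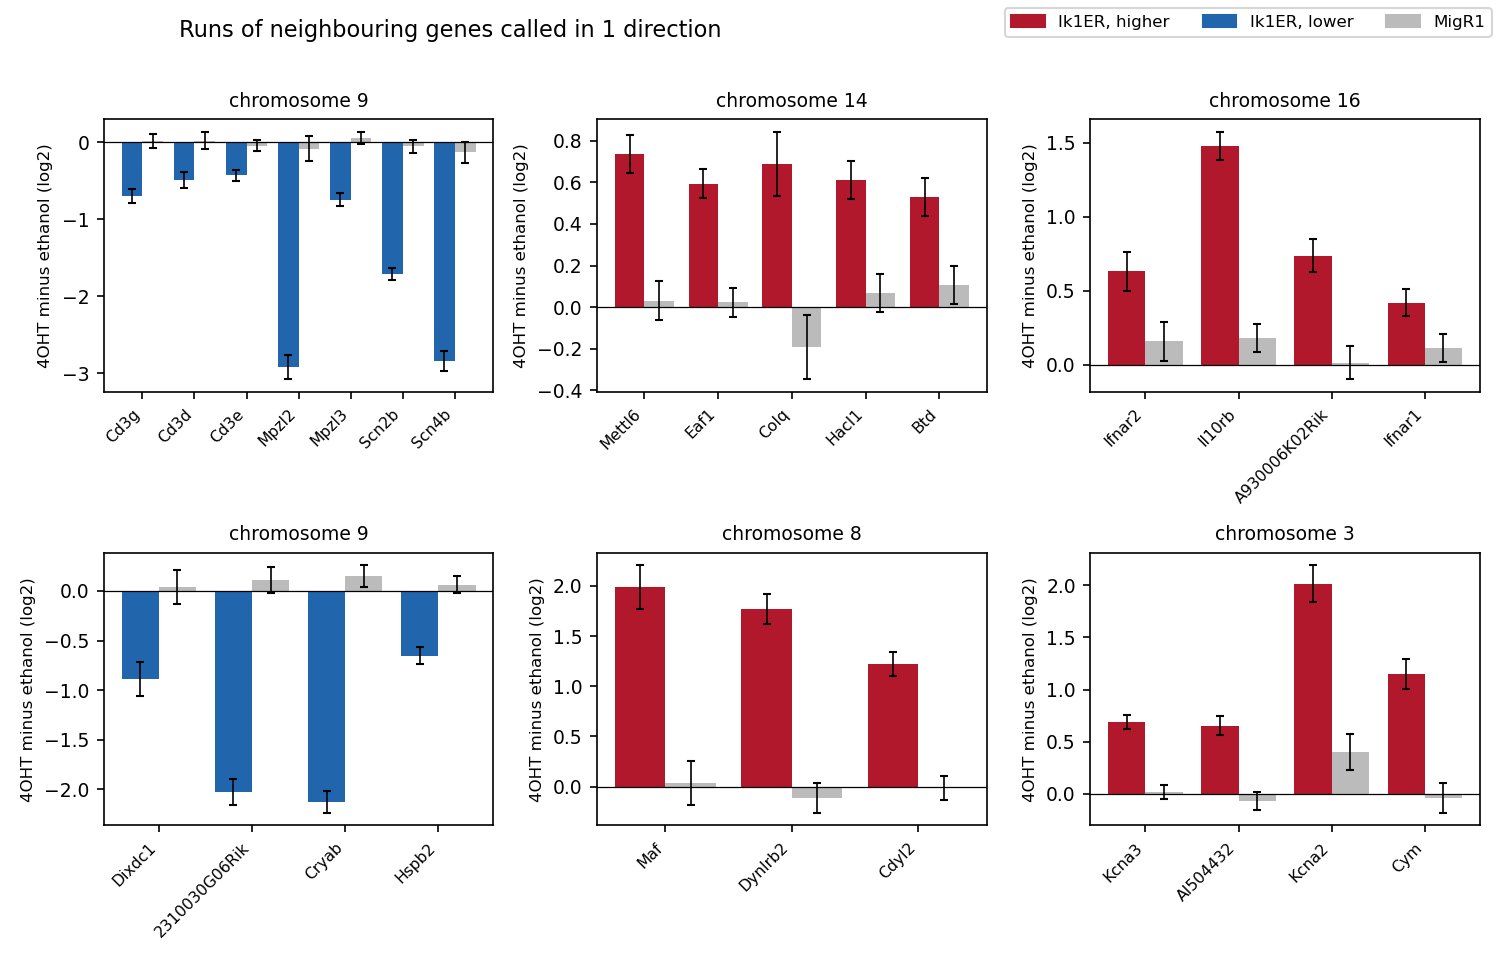
Difference between 4OHT and ethanol (log2, mean with SE from limma) for the genes of 6 runs of neighbours, in gene order, in Ik1ER cells (red for rises, blue for falls) and MigR1 cells (grey). On chromosome 9 the change deepens from -0.43 at Cd3e to -2.92 at Mpzl2, and the grey bars of all 6 runs stay between -0.19 and 0.40.

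The run on chromosome 3 held in every fit that left out an Ik1ER array. It joins the potassium channel genes Kcna3 (0.69) and Kcna2 (2.02), the uncharacterised AI504432 (0.66) and Cym (1.15), the gene of the milk-clotting protease chymosin. Kcna2 read 4.58 and 4.71 in ethanol and 6.88 and 6.44 in 4OHT, so that it went from under the background gauge to above it. A run on chromosome 8 holds Maf (1.99), Dynlrb2 (1.77) and Cdyl2 (1.22), that is, a bZIP transcription factor, a dynein light chain and a chromodomain protein. Dynlrb2 read 4.22 and 4.39 in ethanol and 5.86 and 6.29 in 4OHT. Another probe set of Maf, close to background, read 0.14 and was not called. Of 2 other probe sets of Cdyl2 the bright one read 1.29 and was called, and one close to background read 0.22 and was not.

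Chromosome 16 holds a run of cytokine receptor genes. Il10rb, the shared chain of the receptors for interleukin-10, interleukin-22 and the lambda interferons, read 6.06 and 5.83 in ethanol and 7.45 and 7.40 in 4OHT, a rise of 1.48 (SE 0.10, adjusted p = 0.000299). The type I interferon receptor genes beside it rose less, Ifnar2 (0.63) and Ifnar1 (0.42). A run of 5 rises on chromosome 14, Mettl6 (0.74), Eaf1 (0.59), Colq (0.69), Hacl1 (0.61) and Btd (0.53), spans genes of unlike function, from an elongation factor partner (Eaf1) to the biotin-recycling enzyme (Btd) and a peroxisomal lyase (Hacl1). A second run on chromosome 9 fell: Dixdc1 (-0.89), 2310030G06Rik (-2.03) and the small heat shock protein genes Cryab (-2.13) and Hspb2 (-0.65). Cryab read 7.32 and 7.04 in ethanol and 5.05 and 5.05 in 4OHT, which took it under the background gauge. The run of the retinoblastoma gene Rb1 (0.39) with Rcbtb2 (0.53), Lpar6 (0.64) and Itm2b (0.58) was called in none of its 4 genes without E1 or T1, or without both replicate 2 arrays. In the other runs calls were lost for Hacl1 without E1 (at most 0.0601), Dixdc1 without E1, E2 or T1 (at most 0.125) and Btd without E1, E2 or T2 (at most 0.0883). Further losses were those of Ifnar2 without E1, E2, T1 or either MigR1 4OHT array (at most 0.166), Colq without E1, E2, T2 or either MigR1 ethanol array (at most 0.209) and Ifnar1 without E1, E2, T1, T2 or either MigR1 4OHT array (at most 0.193). In the run of Rb1 they were lost for Itm2b without E1 or T1 (at most 0.103), Rcbtb2 and Lpar6 without E1, E2 or T1 (at most 0.0998) and Rb1 without E1, T1, T2 or any MigR1 array (at most 0.203).

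The genes were also read in 77 classes joined into 8 groups, of which the immune GTPase and interferon-inducible genes (25.9% called), the cytoskeleton (10.5%) and surface proteins (9.38%) held the highest shares of calls. Of 810 genes in the surface classes 9.38% were called (44 higher, 32 lower), against 5.35% of all genes and 4.99% of genes in no class. Without both replicate 2 arrays the share was 5.31%, against 2.13% of all genes. Of 13 SLAM receptors and adaptors, which pass signals between lymphocytes, 5 rose and 1 fell, and the median of the class was 0.30 against -0.00386 for all genes (3 higher and 0 lower without both replicate 2 arrays). Slamf6 read 9.19 and 9.05 in ethanol and 10.35 and 9.96 in 4OHT, a rise of 1.03 (SE 0.13, adjusted p = 0.00404). The groups were apart by more than the gap between either pair of arrays. The others that rose were Cd2 (0.87), Ly9 (0.72), Cd84 (0.64) and Sh2d1a (0.56), the last the adaptor SAP, and Slamf9 (-0.42) fell. Fits without 1 array lost the calls of Cd2 and Cd84 without E1, E2 or T1 (at most 0.102) and Slamf9 without E1, E2, T1 or either MigR1 ethanol array (at most 0.135). Beyond the 3 largest rises and falls of a class, genes here and below were named after their values were seen.

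Of 89 genes with a CD number in their symbol 12 rose and 6 fell (11 higher and 2 lower without both replicate 2 arrays). Besides Cd8a, Cd8b1 and Cd44 (other probe sets of Cd8a read 0.52 to 1.90, all called), the tetraspanin gene Cd37 rose (0.98, SE 0.09, adjusted p = 0.00124), from 8.46 and 8.67 in ethanol to 9.55 and 9.53 in 4OHT, and so did the costimulatory receptor gene Cd27 (0.98) and the adhesion receptor gene Cd96 (1.08). Cd14, the myeloid receptor for bacterial lipopolysaccharide, fell by 1.26 (SE 0.10, adjusted p = 0.000556), from 6.95 and 6.88 in ethanol to 5.60 and 5.70 in 4OHT. The class was chosen by symbol and also caught Cd2ap (-0.40), which is an adaptor and not a surface protein. Of 17 MS4A membrane protein genes 5 rose and none fell (4 higher and 0 lower without both replicate 2 arrays), Ms4a6d by 1.60 (SE 0.14, adjusted p = 0.000977), and 12 were not called. Myeloid markers moved both ways: of 7, Itgam rose by 0.54 and Cd14 and Lyz2 (-0.60) fell, and the summed linear level of the list was 355 and 333 in ethanol and 273 and 257 in 4OHT. Mpo, Elane, Adgre1 and also Itgam (means of 4.38 and 4.91) stayed under the background gauge. Their part in the result was not tested. Without 1 array the calls were lost of Cd8a and Cd8b1 without E2 (at most 0.104), Itgam and Lyz2 without E1, E2 or T1 (at most 0.131) and Cd27 without E1, E2, T1 or T2 (at most 0.131). Lost as well were the calls of Cd2ap without E1, E2, T1 or any MigR1 array (at most 0.182).

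Adhesion genes moved in both directions. Of 23 integrin subunit genes 4 rose and 3 fell (1 higher and 1 lower without both replicate 2 arrays). Itgb2, the beta chain of the leukocyte integrins, rose by 1.01 (SE 0.12, adjusted p = 0.00317), from 8.85 and 9.20 in ethanol to 10.01 and 10.06 in 4OHT, and its partner Itgam rose by 0.54 under the background gauge. Itgae (1.01) and Itgb7 (0.47), which together form the receptor for E-cadherin, rose too. The laminin receptor chain gene Itga6 fell by 0.88 (SE 0.08, adjusted p = 0.00132), from 9.88 and 9.99 in ethanol to 8.97 and 9.12 in 4OHT, and so did its partner Itgb1 (-0.48) and Itga9 (-0.46). Of 60 junction protein genes 1 rose and 6 fell (0 higher and 5 lower without both replicate 2 arrays), with Mpzl2 (-2.92), Cldn12 (-1.08), Mpzl3 (-0.74) and Tjp3 (-0.74) deepest. Lamb2 (-1.28), a laminin chain gene, was the single call among 89 genes of matrix proteins and metalloproteinases, and none of 56 cadherin and protocadherin genes was called. Calls were lost for Itgae without E2 (at most 0.0669), Tjp3 without E2 or T1 (at most 0.0913) and Itgb7 without E1, E2 or T1 (at most 0.0993). Calls were further lost for Itgb1 without E1, E2, T1, T2 or either MigR1 ethanol array (at most 0.163) and Itga9 without E1, E2, T1 or any MigR1 array (at most 0.163).

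Cytokine receptor chains mostly rose where they were called. Of 50 interleukin and interferon receptor genes 7 rose and 1 fell (4 higher and 0 lower without both replicate 2 arrays). Il21r, the specific chain of the interleukin-21 receptor, read 6.72 and 6.43 in ethanol and 7.98 and 8.04 in 4OHT, a rise of 1.43 (SE 0.11, adjusted p = 0.000497). Along with Il10rb, Ifnar1 and Ifnar2 of the chromosome 16 run, Il9r (0.86), Ifngr1 (0.84) and Il17rb (0.55) rose, and Il15ra (-0.61) fell. Both chains of the type I interferon receptor and 1 of the interferon-gamma receptor were among the rises. Of 37 TNF ligands and receptors 3 rose and 2 fell (2 higher and 0 lower without both replicate 2 arrays): the death receptor gene Fas (0.68), Cd27 and Tnfrsf13b (0.36) rose, and the ligand genes Tnfsf9 (-0.60) and Tnfsf11 (-0.71) fell. Of 131 other G protein-coupled receptors 6.11% were called, near the 5.35% of all genes, and without both replicate 2 arrays none rose and 3 fell. In all arrays 5 rose, with the proton-sensing receptor gene Gpr65 (1.47) first, and 3 fell, among them Gpr83 (-1.92) and Adgrg1 (-0.70). In fits without 1 array the lost calls were Fas without E1 (at most 0.0544), Il9r without E2 (at most 0.0694) and Tnfsf9 without E1 or E2 (at most 0.0635). Further losses were those of Il17rb and Il15ra without E1, E2 or T1 (at most 0.136), Gpr65 without E1, E2, T1 or T2 (at most 0.101) and Tnfrsf13b without E1, E2, T1 or any MigR1 array (at most 0.184). Lost as well were the calls of Tnfsf11 without E2, T1, T2 or any MigR1 array (at most 0.118).

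Immune GTPase and interferon-inducible genes were called in 25.9% of 58 cases (12.1% without both replicate 2 arrays). Of 8 GIMAP genes, which encode GTPases of lymphocyte survival, 3 rose and none fell (2 higher and 0 lower without both replicate 2 arrays), and the class median was 0.52. Gimap6 read 6.70 and 6.98 in ethanol and 8.23 and 8.26 in 4OHT, a rise of 1.41 (SE 0.12, adjusted p = 0.000784). Its neighbour Gimap7 rose by 1.98, and Gimap8 rose by 1.58. Of 11 guanylate-binding and immunity-related GTPases 5 rose and none fell (2 higher and 0 lower without both replicate 2 arrays), with a class median of 0.41: Gbp2 (1.36), Gbp8 (1.04), Gbp3 (0.83), Gbp7 (0.66) and Gbp6 (0.45). Members of these families are close paralogs, and several lie side by side (Gbp3 and Gbp7 on chromosome 3), so that their signals may not be independent. Genes of the Ifi200, IFIT and IFITM interferon-inducible class mostly fell where they were called, with 2 rises and 5 falls of 39. Some of these calls were lost without both replicate 2 arrays. The class did not hold all interferon-inducible genes, and outside it such genes moved both ways, among them Zbp1 (1.41) and Mx1 (-1.26). Mndal, of the Ifi200 family of DNA sensors, fell by 1.26 (SE 0.08, adjusted p = 0.000286), beside Ifi204 (-2.64), Ifi202b (-2.37), Ifitm2 (-2.04) and Ifitm3 (-0.71), and Ifit1bl1 (0.83) and Isg20 (0.53) rose. Left-out arrays ended the calls of Gbp7 without E1 (at most 0.0788), Gbp2 without E1 or T1 (at most 0.0676) and Gimap8 without E1, E2 or T1 (at most 0.101). Calls were further lost for Gbp6 without E1, E2, T1 or either MigR1 4OHT array (at most 0.17), Ifit1bl1 without E1, E2, T2 or either MigR1 ethanol array (at most 0.19) and Isg20 without E1, E2, T1, T2 or any MigR1 array (at most 0.184).

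**Figure D3:**
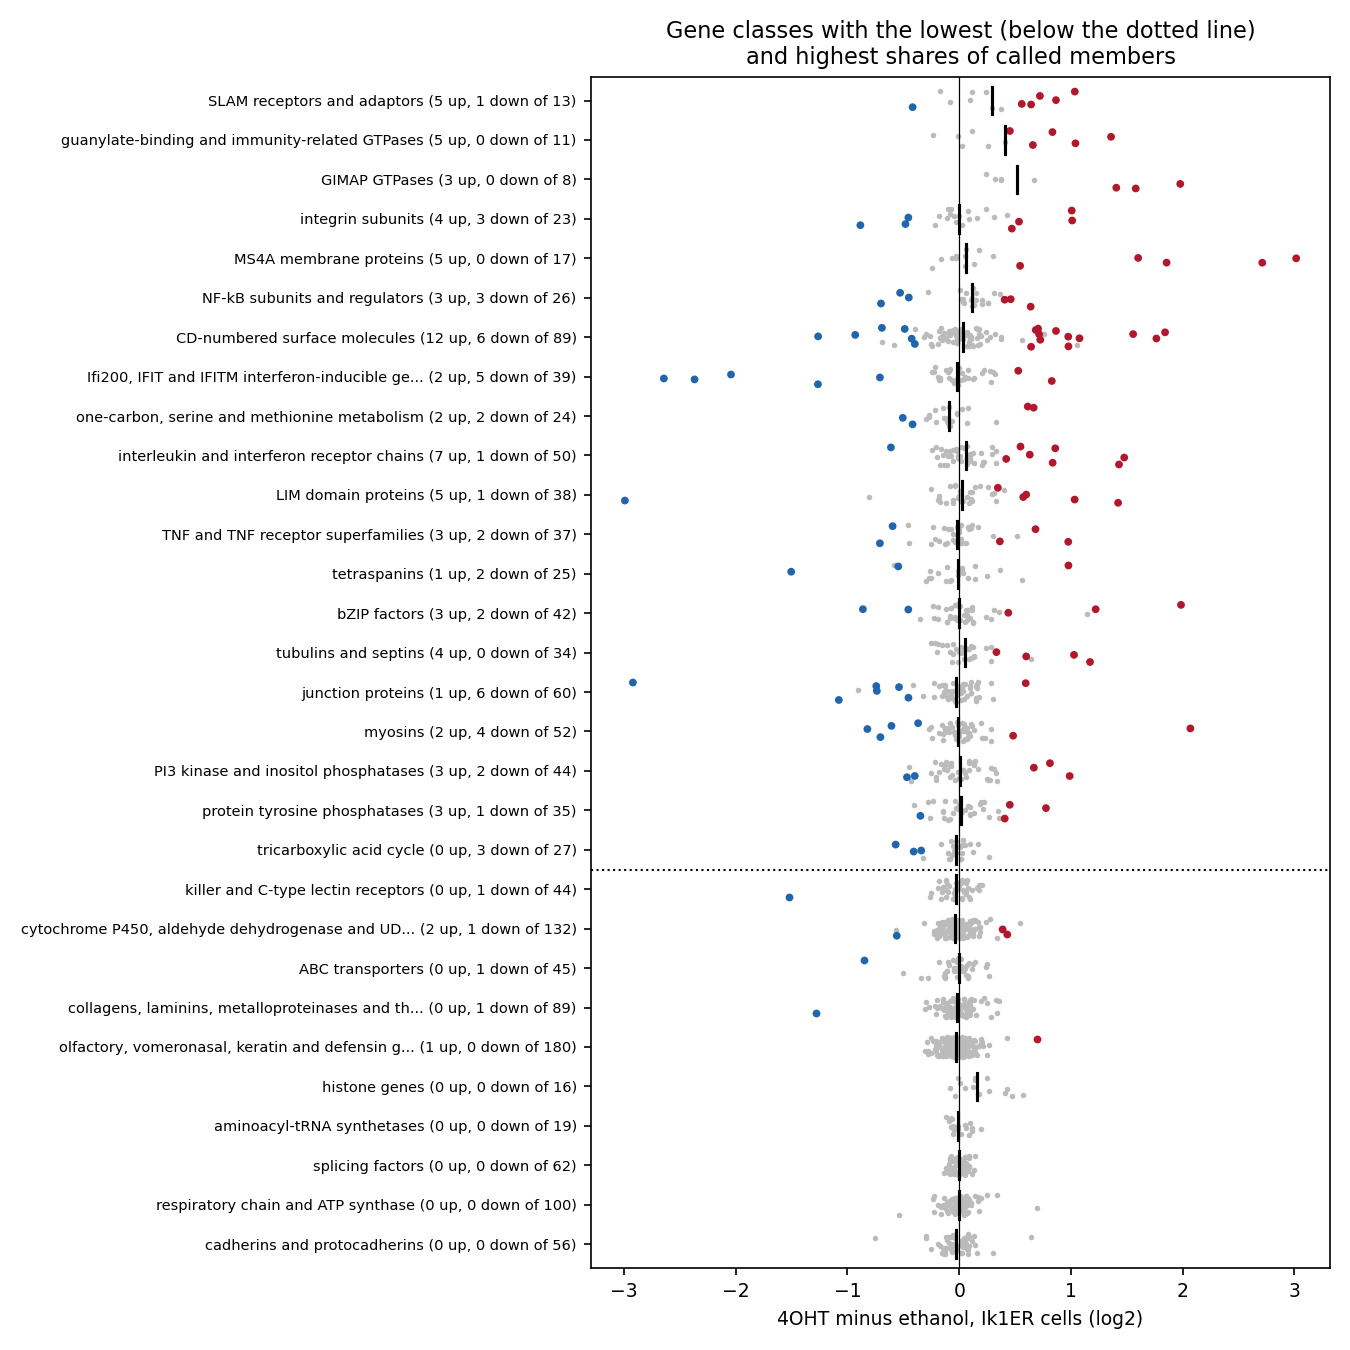
Difference between 4OHT and ethanol in Ik1ER cells (log2, horizontal) of every measured member of 30 of the gene classes reported here that have at least 8 members, the 20 with the highest share of called members above the dotted line and the 10 with the lowest below it. Red and blue points are genes called higher and lower, grey points were not called, and black ticks are class medians; the medians of the GTPase and SLAM classes lie to the right of 0, and splicing, respiratory chain and tRNA synthetase genes cluster at 0.

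Genes of the cytoskeleton group were called in 10.5% of 391 cases (29 higher, 12 lower), and in 4.35% without both replicate 2 arrays, where the calls split 7 higher and 10 lower. Of 38 LIM domain protein genes 5 rose and 1 fell (2 higher and 1 lower without both replicate 2 arrays): Pdlim4 (1.42), Pdlim2 (1.03), Limd2 (0.60), Pdlim5 (0.57) and Csrp1 (0.35) rose, and Lmcd1 (-2.99) was the fall. Of 34 tubulin and septin genes 4 rose, Tubb2b (1.17), Tubb2a (1.03), Tuba1a (0.60) and Septin6 (0.33), and none was called without both replicate 2 arrays. Another probe set of Tubb2a, nearer background, read 0.27 and was not called, and 6 others of Septin6 read 0.02 to 0.51 and were not called either. Of 37 kinesin genes 2 rose, Kif18b (0.45) and Kif1b (0.37), and Kif26b (-1.71) fell (0 higher and 1 lower without both replicate 2 arrays). Other probe sets of Kif1b read 0.03 to 0.19 and were not called. Of 72 Rab GTPases of vesicle traffic 5.56% were called, near the share of all genes, with Rab37 (1.56) the largest of 3 rises and Rab34 (-1.18) the fall. Lost calls were those of Kif18b without E1 (at most 0.0566), Tubb2b without E1, T1 or T2 (at most 0.0945) and Kif1b without E1, E2, T1 or either MigR1 4OHT array (at most 0.135). Further losses were those of Csrp1 without E1, E2, T1 or any MigR1 array (at most 0.164) and Septin6 and Tuba1a without E1, E2, T1, T2 or any MigR1 array (at most 0.209).

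Classes with genes that act below the antigen receptor were called in shares near or above the 5.35% of all genes. With all arrays the share was 11.4% for PI3 kinase and inositol phosphatase genes and for protein tyrosine phosphatases, and 8.93% for Ras and Rap regulators. Most fits with fewer Ik1ER arrays, in which fewer genes were called in all, held fewer calls in the last 2 of these classes. Among Ras and Rap regulators rises outnumbered falls with all arrays (4 and 1), but not in most of those fits. Of 36 phospholipase C, diacylglycerol kinase and protein kinase C genes 2 were called and both rose, a share of 5.56% near that of all genes, and 1 was called without both replicate 2 arrays. Prkcq, the protein kinase C of the T cell synapse, read 8.69 and 8.66 in ethanol and 9.65 and 9.84 in 4OHT, a rise of 1.07 (SE 0.09, adjusted p = 0.000784), and Dgka, which removes its activator diacylglycerol, rose by 0.91 (SE 0.10, adjusted p = 0.00276). Of 44 PI3 kinase and inositol phosphatase genes 3 rose and 2 fell (2 higher and 0 lower without both replicate 2 arrays). Inpp5d, the phosphatase SHIP1 of blood cells, rose by 0.81 (SE 0.07, adjusted p = 0.000964), as did the regulatory subunit genes Pik3r3 (0.99) and Pik3r1 (0.67), and Pik3ip1 (-0.47) and Inpp1 (-0.40) fell. Rasgrp1 (0.70), the Ras exchange factor that diacylglycerol recruits, and Ptprcap (0.78), a partner of CD45, rose. The MAP kinase phosphatase gene Dusp9 fell by 1.08 (SE 0.14, adjusted p = 0.00553), and of its other probe sets at a similar level 1 read -0.98 and was called and 1 read -0.22 and was not. Calls that a left-out array ended were Pik3r1 without E1 or T2 (at most 0.105), Pik3r3 without E1, E2 or T1 (at most 0.118) and Pik3ip1 and Rasgrp1 without E1, E2 or T2 (at most 0.101). Lost as well were the calls of Inpp1 without E1, E2, T1 or any MigR1 array (at most 0.168).

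Of 26 NF-kB genes 3 rose and 3 fell (2 higher and 1 lower without both replicate 2 arrays), and 1 of the 6 called genes, Nfkb2, encodes a subunit. The inhibitor genes Nfkbie (0.64) and Nfkbia (0.46) and Tnip1 (0.41) rose. Tnip2 fell by 0.70 (SE 0.09, adjusted p = 0.00522), and so did Tnfaip3 (-0.53), which encodes the deubiquitinase A20, and Nfkb2 (-0.45). A brighter probe set of Nfkb2 read -0.17 and a dimmer one of Tnfaip3 -0.16, neither called, and of 4 others of Nfkbia 3 read 0.59 to 0.78 and were called and the dimmest read 0.14. In the Wnt class 3 of 44 genes fell and none rose, also without both replicate 2 arrays. Wls, needed to export Wnt proteins, read 9.77 and 9.78 in ethanol and 8.91 and 8.83 in 4OHT, so that it fell by 0.91 (SE 0.10, adjusted p = 0.00222), and the receptor genes Fzd5 (-0.74) and Fzd7 (-0.72) fell. A second probe set of Fzd7 read -0.10. The class did not hold the Wnt ligand gene Wnt8b, which was called higher (0.62) and went from under the background gauge to above it. In the TGF-beta and BMP class 3 of 38 genes fell and none rose (0 higher and 1 lower without both replicate 2 arrays), the receptor gene Acvr1 (-0.42), the signal transducer gene Smad1 (-0.53) and the target gene Id1 (-0.77), and the other probe sets of Acvr1 read -0.12 and 0.01. The shares of the Wnt and TGF-beta classes (6.82% and 7.89%) were near the 5.35% of all genes. That of the NF-kB class was 23.1%, but most of its calls were lost in some fit without 1 array, as listed next. Fits without 1 array ended the calls of Id1 without E1 or T2 (at most 0.147), Nfkbie, Tnfaip3 and Fzd5 without E2 or T1 (at most 0.116) and Nfkbia without E1, T1 or T2 (at most 0.0998). Calls were further lost for Acvr1 without E1, E2 or T1 (at most 0.118), Tnip1 without E1, E2, T1 or T2 (at most 0.121) and Nfkb2, Fzd7 and Smad1 without E1, E2, T1 or any MigR1 array (at most 0.211).

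Channel and transporter genes were called in 4.37% of 595 cases, below the share of all genes, and in 2.18% without both replicate 2 arrays, against 2.13%. Of the 26 called 6 changed by 1 or more, and their median size was 0.602. Beside Kcna2, Kcna3, Scn2b and Scn4b of the runs, the lysosomal channel gene Mcoln3 (1.97) and the heat-gated channel gene Trpv2 (0.93) rose. Of 362 solute carriers 10 rose and 5 fell (2 higher and 3 lower without both replicate 2 arrays), with the zinc importer gene Slc39a4 (-1.02), the sugar transporter gene Slc5a9 (-1.43) and the aromatic amino acid transporter gene Slc16a10 (-0.82) deepest. Slc5a9 read 9.48 and 9.55 in ethanol and 7.91 and 8.25 in 4OHT. Other probe sets of Slc16a10 read -0.74 and, near background, -0.13. The call was lost of Slc16a10 without E1 (at most 0.0556).

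Genes of transcription and chromatin were called in 5.01% of 1018 cases (26 higher, 25 lower), close to the background share, and in 1.67% without both replicate 2 arrays (9 higher, 8 lower), against 2.13% of all genes. Jund, a subunit of the AP-1 transcription factor, read 8.15 and 8.30 in ethanol and 9.33 and 9.57 in 4OHT, a rise of 1.22 (SE 0.10, adjusted p = 0.000784), whereas Jun, another AP-1 subunit, fell by 0.86 (adjusted p = 0.0229) on 1 probe set and read -0.29 on another at a similar level, which was not called. Pou2af1, the lymphoid coactivator of Oct factors, read 8.14 and 8.59 in ethanol and 10.02 and 10.33 in 4OHT, a rise of 1.81 (SE 0.16, adjusted p = 0.000964). Of 396 zinc finger protein genes 4 rose and 10 fell (0 higher and 4 lower without both replicate 2 arrays), Zbtb4 (0.61) and Zfp821 (0.82) among the rises and Zfp229 (-1.08), Zfp267 (-0.76) and Zfp704 (-0.70) deepest among the falls, and a second probe set of Zbtb4 at a similar level read 0.02. The orphan receptor gene Rora rose by 0.89 on the probe set used, and of its 6 other probe sets above background 1 read 0.78 and was called and 5 read -0.03 to 0.62 and were not. Among chromatin genes Setd4 (0.88) rose and the DNA methyltransferase gene Dnmt3b (-0.68) fell. No histone gene of 16 was called. Of 46 DNA repair genes 4 rose, Rad51c (0.50), Fanci (0.43), Lig4 (0.40) and Fancd2 (0.38), and Nbn (-0.37) fell, and none was called without both replicate 2 arrays. The calls that a fit without 1 array lost were Zfp821 without E1 (at most 0.0657), Jun, Rad51c and Lig4 without E1 or E2 (at most 0.135) and Zfp267, Zfp704, Rora and Dnmt3b without E1, E2 or T1 (at most 0.109). Further losses were those of Zfp229 without E2, T1 or any MigR1 array (at most 0.163), Fanci without E1, E2, T2 or any MigR1 array (at most 0.187) and Fancd2 and Nbn without E1, E2, T1, T2 or any MigR1 array (at most 0.157).

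**Figure D4:**
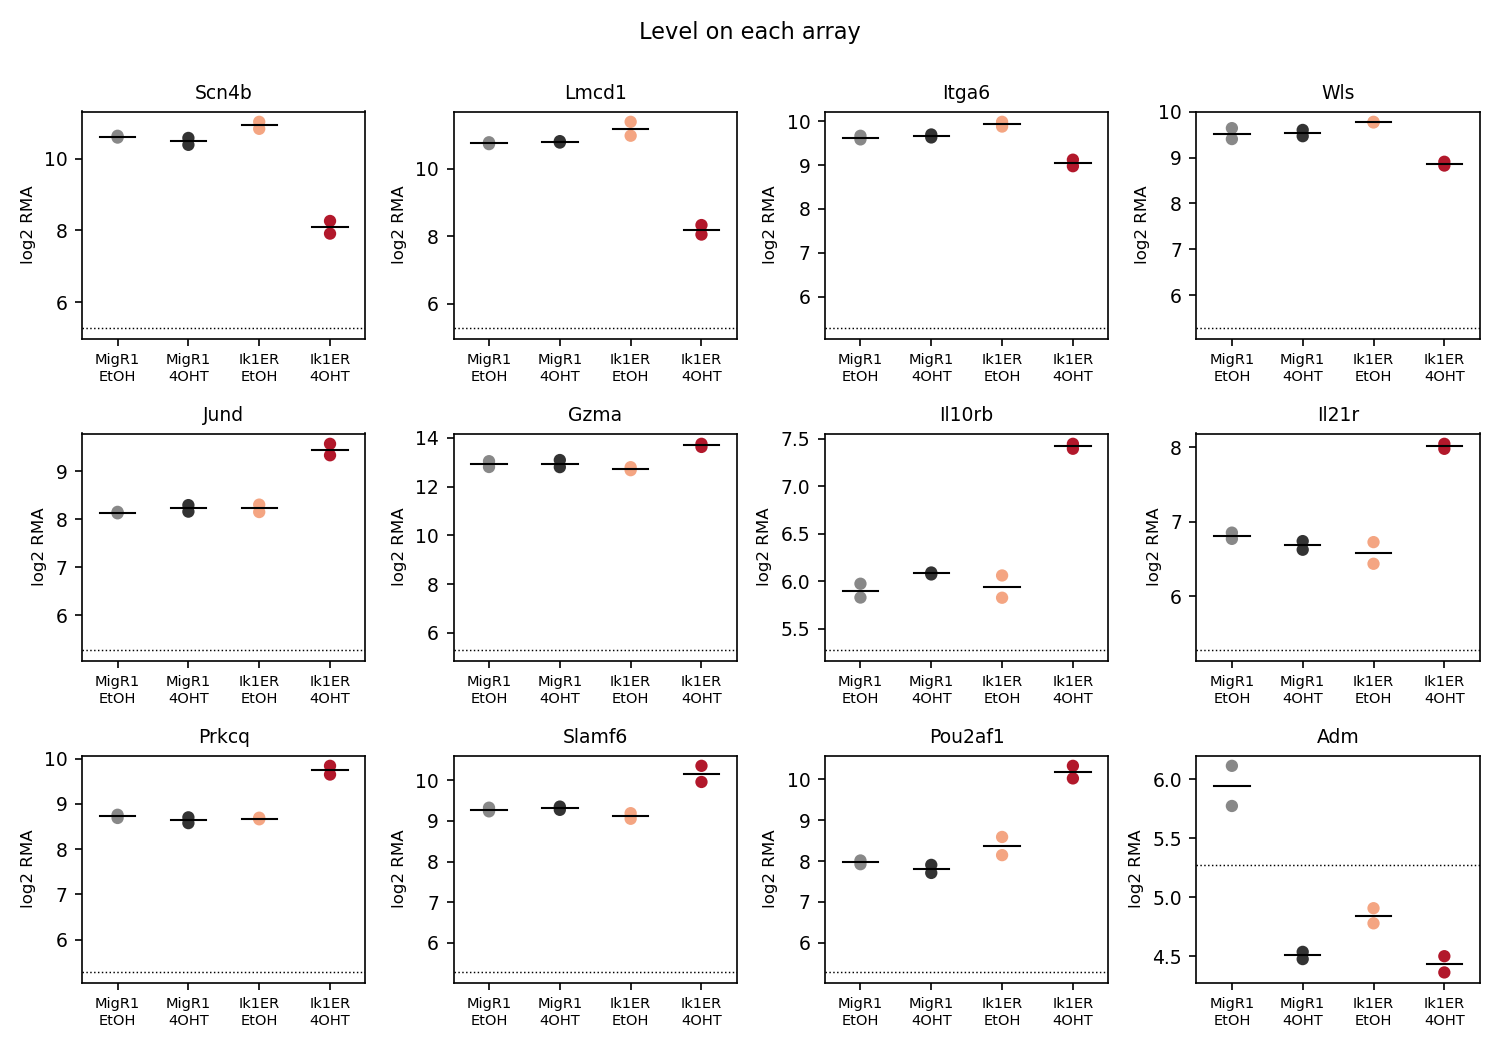
Level (log2 RMA) of 12 genes on each of the 8 arrays, as points, with group means as bars and the brightest bacterial control (5.27) as a dotted line; EtOH is ethanol. The 2 Ik1ER 4OHT arrays stand below all others for Scn4b, Lmcd1, Itga6 and Wls and above all others for Jund, Gzma, Il10rb, Il21r, Prkcq, Slamf6 and Pou2af1, while Adm is lower with 4OHT in both lines.

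Housekeeping classes held few calls. None of 100 respiratory chain and ATP synthase genes, 62 splicing factors or 19 aminoacyl-tRNA synthetases was called, and 2 of 48 cytosolic ribosomal protein genes were. Of these, Rps20 (-0.41) was read by a dim probe set, another as dim read -0.18, and its bright probe sets read -0.09 and -0.01. Metabolic classes together stood at 4.64% of 949 genes (21 higher, 23 lower), and at 1.16% without both replicate 2 arrays. Tktl1, a transketolase-like gene of the pentose phosphate pathway, rose by 1.99, the muscle-type AMP deaminase gene Ampd1 by 1.09 (SE 0.10, adjusted p = 0.00124) and the ceramide synthase gene Cers4 by 0.86 (0.59 and 0.43 on its other probe sets). The iron uptake regulator gene Hfe fell by 2.13 (SE 0.12, adjusted p = 0.000152) and the methionine salvage gene Mtap by 0.51. In the tricarboxylic acid cycle 3 of 27 genes fell and none rose, Idh1 (-0.57), Fh1 (-0.41) and Idh2 (-0.34), and a dimmer probe set of Idh2 read 0.06. None of the cycle was called without both replicate 2 arrays. Of 51 lysosomal genes 5 rose and none fell, Ctsl (0.87), Ctse (0.67), Ctso (0.64), Ctsw (0.61) and Psap (0.36), of which the first 4 encode cathepsins and the last a sphingolipid activator (1 higher and 0 lower without both replicate 2 arrays). Laptm4b (-0.95), the lysosomal membrane protein gene named among the abundant falls, was not in the lysosomal class. Genes usually silent in lymphocytes (olfactory and vomeronasal receptors, keratins, defensins) gave 1 call in 180, Olfr315 (0.69), or 0.556%. Fits without 1 array lost the calls of Ctso without E1 or T1 (at most 0.0938), Idh1, Ctse and Ctsw without E1, E2, T1 or T2 (at most 0.156) and Rps20 without E1, E2, T1, T2 or either MigR1 4OHT array (at most 0.219). Lost as well were the calls of Psap without E1, E2, T1, T2 or either MigR1 ethanol array (at most 0.181) and Fh1 and Idh2 without E1, E2, T1 or any MigR1 array (at most 0.181).

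Promoters were examined because Ikaros binds TGGGAA, and sequences exist in the RefSeq table (assembly GRCm38.p6) for 14368 of the genes, with 18009 promoters from 250 bases before to 50 after a start site. The sequences shown are those of the 2 largest rises and the 2 largest falls whose promoter holds the word on either strand, each printed 5' to 3' over the 250 bases before the start site with the word in capitals (TTCCCA is its reverse complement).
Cd8a: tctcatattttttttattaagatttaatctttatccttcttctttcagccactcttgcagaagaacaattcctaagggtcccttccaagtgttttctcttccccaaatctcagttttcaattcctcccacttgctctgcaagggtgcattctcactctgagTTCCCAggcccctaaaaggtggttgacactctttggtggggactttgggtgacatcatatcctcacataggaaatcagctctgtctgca
Dynlrb2: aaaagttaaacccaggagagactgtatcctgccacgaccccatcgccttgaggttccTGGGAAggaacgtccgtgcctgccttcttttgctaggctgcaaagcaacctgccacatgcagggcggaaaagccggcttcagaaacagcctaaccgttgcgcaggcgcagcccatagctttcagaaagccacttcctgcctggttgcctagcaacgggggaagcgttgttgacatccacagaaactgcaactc
Gpr83: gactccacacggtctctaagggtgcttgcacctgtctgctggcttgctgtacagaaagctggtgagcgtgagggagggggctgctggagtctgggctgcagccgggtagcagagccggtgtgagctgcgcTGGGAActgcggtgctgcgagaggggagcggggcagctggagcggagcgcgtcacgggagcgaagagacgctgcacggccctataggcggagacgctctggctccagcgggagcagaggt
Spin4: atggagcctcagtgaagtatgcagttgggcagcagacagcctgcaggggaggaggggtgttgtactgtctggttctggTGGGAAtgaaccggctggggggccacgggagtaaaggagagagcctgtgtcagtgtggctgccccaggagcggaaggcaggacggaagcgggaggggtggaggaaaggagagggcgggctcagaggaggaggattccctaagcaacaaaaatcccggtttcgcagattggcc
The regions are chr6:71373177-71373426 (plus strand) for Cd8a, chr8:116504765-116505014 (plus strand) for Dynlrb2, chr9:14859960-14860209 (plus strand) for Gpr83 and chrX:95026683-95026932 (minus strand) for Spin4. Cd8a (1.84), a coreceptor chain gene of killer T cells, and Dynlrb2 (1.77) rose, and the receptor gene Gpr83 (-1.92) and Spin4 (-1.72), which encodes a reader of histone marks, fell. The word starts at -89, -193, -120 and -172 from the start site in these genes. The call was lost of Cd8a without E2 (at most 0.104).

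The share of promoters with the word was lowest for genes that rose and highest for genes that fell. It stood in 101 of 548 promoters of genes called higher (18.4%), in 136 of 445 of genes called lower (30.6%) and in 24.2% of promoters of genes not called and of all promoters. Promoters of 1 gene share sequence, so these shares are a description and were not tested. The shorter word GGGAA, which lies within TGGGAA, gave the same order, with 58.6%, 69.7% and 64.5% for higher, lower and not called. With fits that left out 1 Ik1ER array the TGGGAA share was 17.9% to 19.6% for higher and 31.0% to 32.7% for lower, and 18.7% and 31.7% without both replicate 2 arrays. Among genes above the background gauge it was 17.5%, 30.8% and 23.0%. Changes of 1 or more gave 15.9% and 30.1%, and smaller ones 18.8% and 30.6%. The order held at each base composition. With promoters split into 3 groups of equal size by G and C content, in the poorest the shares were 19.5% (higher), 38.3% (lower) and 29.3% (not called), in the middle group 22.2%, 34.5% and 26.6%, and in the richest 13.7%, 19.7% and 16.6%. The same letters in reverse order, AAGGGT, stood in 12.0%, 13.3% and 12.1%.

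Words of other factors differed by fewer percentage points between rises and falls. The ETS word GGAAGT, which shares GGAA with the Ikaros word, stood in 27.7% of promoters of genes called higher, 23.6% of those called lower and 25.4% of those not called. The RUNX word TGTGGT stood in 15.5% and 13.7% of those of genes called higher and not called and in 49 of 445 of genes called lower, and the AP-1 word TGAGTCA in 4.20% (higher), 6.52% (lower) and 4.48% (not called). The E-box CACGTG was at 8.76%, 8.09% and 8.76%. All words were searched on both strands over the same 300 bases. RUNX and ETS words ran opposite to the Ikaros word between rises and falls, and the AP-1 word ran the same way. The RUNX and AP-1 words are rarer than the Ikaros word, which keeps gaps in percentage points small. In the 250 bases before the start site alone the RUNX word stood in 13.3% (higher) and 7.64% (lower). The Ikaros word stood there in 16.6% and 27.2%. A match to TGGGAA is also a match to the site of the Notch effector RBPJ, a match is no proof of binding, and its absence says only that these letters are not in the window.

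**Figure D5:**
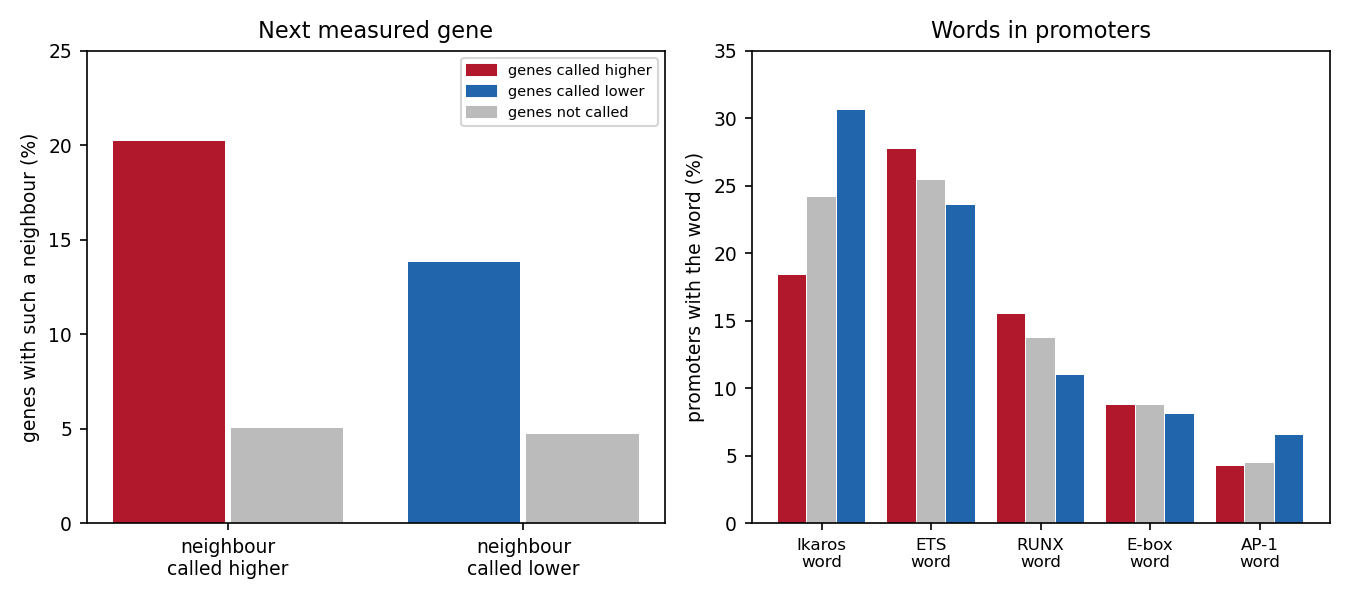
Left, share (%) of genes called higher (red) or lower (blue) whose next measured gene on the chromosome was called in the same direction, beside the share of genes not called (grey) with such a neighbour: 20.2% against 5.04%, and 13.8% against 4.70%. Right, share (%) of promoters, 250 bases before to 50 after the start site, that hold each word for genes called higher (red), not called (grey) and called lower (blue): for the Ikaros word 18.4%, 24.2% and 30.6%.

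The 4OHT effect was tested against that in vector cells. Of 18193 genes 229 differed between the lines (1.26%), with 113 effects higher (0.621%) and 116 lower (0.638%) in Ik1ER cells, and 227 of them were among the 973. This count was 51 to 78 without a MigR1 array, 103 and 109 without the Ik1ER ethanol arrays 1 and 2, and 100 without both Ik1ER replicate 2 arrays. In MigR1 cells 1 gene was called (0.0055%), with 386 at an unadjusted p under 0.05 against 3210 in Ik1ER cells. This gene was Adm, which encodes the vasodilator peptide adrenomedullin. In MigR1 cells it read 6.12 and 5.78 in ethanol and 4.48 and 4.54 in 4OHT and fell by 1.44 (SE 0.12, adjusted p = 0.0379), and in Ik1ER cells it read 4.91 and 4.78 in ethanol and 4.36 and 4.50 in 4OHT (-0.41, adjusted p = 0.102), where it was under the background gauge on all 4 arrays. Its fall in MigR1 cells was the larger by 1.03 (adjusted p = 0.0328), and another probe set read -0.26 in Ik1ER cells. The call of Adm in MigR1 cells was lost in every fit without 1 array except that without MigR1 ethanol replicate 2. The other gene that differed without a call in Ik1ER cells was the natriuretic peptide receptor gene Npr1 (-0.19 in Ik1ER and 0.52 in MigR1 cells), named after its values were seen. Of the 973 genes, 511 had the same sign in both lines.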

How the data were processed

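Total RNA was hybridised to Affymetrix arrays, and the deposited table holds log2 values, which the authors obtained with RMA (submitters' processing notes). The sources used here give neither its version nor the probe set definitions. This normalization gives arrays a common distribution, which hides any global shift of RNA content and compresses changes of dim genes. Of 45101 probe sets, 34945 with 1 gene symbol were used, the one of highest mean standing for its gene (_x_at only where there was no other), which left 18193 genes.

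Means of the 4 groups were fitted with limma 3.58.1 in R 4.3.3 (8 arrays, lmFit, eBayes, 4 residual degrees of freedom), with adjustment by Benjamini and Hochberg over all genes and calls at an adjusted p under 0.05. The steps were tested on simulated data. Precision is limited by the number of arrays. The 27 Bacillus control probe sets gauged background (highest mean 5.27, median 3.33). Of the genes, 18032 matched the RefSeq gene table (used for order only). Genes named are the up to 3 largest rises and falls called in each class, the 10 largest rises and 10 largest falls among abundant genes, members of runs of 3 or more, the 5 highest and 5 lowest differences between lines and the printed promoters, leaving out predicted and clone-named genes; exceptions are stated, and 1 class and its genes are not reported here. Members, classes, lists and tests were chosen with earlier results of these data known. Alternatives were a replicate block, filters, normalizations, probe set rules, fewer arrays and a fold change minimum.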

Additional observations from a re-analysis of the deposited data

Results flagged for a closer look

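The 4OHT effect differed between Ik1ER and MigR1 cells, by limma's interaction term at an adjusted p under 0.05, for 229 genes. As log2 differences of the effects, Ik1ER minus MigR1, the deepest were those of Rnf182 (-3.04), Lmcd1 (-3.03), Mpzl2 (-2.84), Scn4b (-2.71) and Ifi204 (-2.66). The highest were those of Ms4a4b (2.97), Ms4a4d (2.71), Cxcr6 (2.27), Tktl1 (2.06) and Myl4 (2.05). Another probe set of Myl4, close to background, read -2.59e-05 in Ik1ER cells, against 2.07 on the one used, and was not called. For Adm the difference was 1.03, with the larger fall in MigR1 cells, and for Npr1 it was -0.714. Groups of 2 arrays were not tested for outlying samples.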

How the results depend on the processing

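In the alternatives with 1 value per gene, none of the called genes named by the rule reversed its direction. Single probe sets did: of 223 others above background, on 128 called genes selected for naming, 215 had the sign of the one used. The balance of calls reversed as well. Falls outnumbered rises without Ik1ER ethanol replicate 1, without Ik1ER 4OHT replicate 2 and without both Ik1ER replicate 2 arrays. In Ik1ER cells the 973 calls (516 higher, 457 lower) became 412 (234 and 178) in a fit of only the 4 arrays compared, and 153 (78 and 75) with a log2 change of at least 1. They became 439 to 827 without 1 array (202 to 427 higher, 176 to 445 lower) and 388 (177 and 211) without both Ik1ER replicate 2 arrays, an alternative chosen after seeing the data. With the replicate number as a block 1151 genes were called, 942 of the 973 among them; the number is no stated pairing, and deviations of same-numbered arrays correlated at 0.448 in Ik1ER and 0.269 in MigR1 cells. Of 275 called genes named by the rule, 107 kept their call in all 8 fits without 1 array, 114 without both replicate 2 arrays and 270 with the block. The MigR1 count of 1 became 0 with the replicate block, without dim genes, with quantile normalization, with the mean or each of the probe sets, with only 4 arrays and without both replicate 2 arrays, and was 0 to 1 without 1 array. The 229 differences became 439 with trend and robust settings, 112 with a log2 size of at least 1, 100 without both replicate 2 arrays, and 51 to 269 without 1 array. The share of genes called higher with such a neighbour (20.2%) was 13.0% to 16.9% without 1 Ik1ER array and 16.5% without both replicate 2 arrays, and that of genes called lower (13.8%) was 11.8% to 16.5%, and 19.7% among genes above background. In the fits with fewer Ik1ER arrays the shares of genes not called with such neighbours were smaller too. The causes were not tested. Signal over background limits the 44 called genes that stayed under the brightest Bacillus control; with the median control as gauge 1 did.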
